A study of Pimephales promelas with 12 samples.

Results

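The hypothalamus was compared with the telencephalon within the same fathead minnow (FHM, Pimephales promelas), a small cyprinid fish used to test chemicals in water. The comparison took every RNA-seq library that the labels give to either brain region, 3 hypothalamus and 3 telencephalon libraries, which are 6 of the 12 libraries of the study. The other 6 came from gut and liver and served here only to describe levels. All fish were adult males from a laboratory culture, no allele or strain is named, and the only agent named in the labels is the anaesthetic MS-222 at sacrifice. The labels number the libraries of each tissue from 1 to 3, and the study took its tissues from 3 individual males, so each number was read as a fish.

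The hypothalamus lies at the base of the forebrain. It governs hormone release by the pituitary, and with it reproduction, growth, stress and feeding. The telencephalon is the front part of the forebrain, and in fish it takes part in smell, learning and social and reproductive behaviour. A sample of either region is a mixture of neurons, glia, vessels and blood, so fewer cells of a type and less RNA per cell cannot be told apart.

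Reads were counted on contigs, the assembled or single sequences that stand for transcripts. The deposited lists give contig names and counts, and none of the 11230 names that hold a sequence identifier matched a gene of the annotation supplied for this species. The transcripts are therefore described by contig name, without gene names or sequences, and the region labels could not be checked against the marker genes of hypothalamus, telencephalon or pituitary. A name that starts with FHM_All_PTA_Assem gives a cluster number and then a contig of that cluster, Singlet marks a sequence that joined no assembly, and names such as c2017/f9p1/760 are full-length isoforms from PacBio long reads, with the length in nucleotides last. Of the 46309 contigs in the study, 45077 had a count in the 6 brain libraries. The comparison tested 42878, those found in 2 or more replicates of some tissue, and the other 3431 held 0.0182% of the brain counts.

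The brain libraries held 17729942 to 22589095 counts each, so 3 counts, taken as the limit that a count of 0 allows, corresponded to 0.137 to 0.172 CPM (a library's counts scaled to a common total, here with the TMM factors of edgeR). For 5 of the 6 brain libraries the most similar library was the other region of the same fish, and telencephalon 2 was most like telencephalon 3. Over the 22894 well expressed contigs, whose mean was 50 counts or more, the log2 CPM of hypothalamus and telencephalon correlated across contigs with Pearson r of 0.958 in fish 1, 0.878 in fish 2 and 0.953 in fish 3. Between regions of different fish r was 0.810 to 0.925, and between fish it was 0.836 to 0.884 among hypothalamus and 0.901 to 0.951 among telencephalon libraries. These values describe 6 libraries and carry no test, since the contigs of a library share its RNA and depth.

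The hypothalamus library of fish 2 stood apart. Of the 22894 contigs, 6002 (26.2%) lay more than 2-fold from the mean log2 level of the other hypothalamus libraries, 1474 above it and 4528 below it. The same share was 13.6% for hypothalamus 1, 16.1% for hypothalamus 3, and 9.23%, 6.07% and 5.77% for telencephalon 1, 2 and 3. Unassembled single sequences were low in this library and took 3.66%, 2.20% and 3.93% of the counts in hypothalamus 1, 2 and 3, against 3.58%, 3.62% and 3.42% in telencephalon 1, 2 and 3. Their median log2 ratio of hypothalamus over telencephalon was -0.97 in fish 2, where 79.1% of 3062 were lower in hypothalamus, beside -0.05 in fish 1 and 0.18 in fish 3. Contigs of the Paracel assembly, the largest source, had medians of 0.15 in fish 2, -0.0017 in fish 1 and -0.06 in fish 3.

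**Figure D1:**
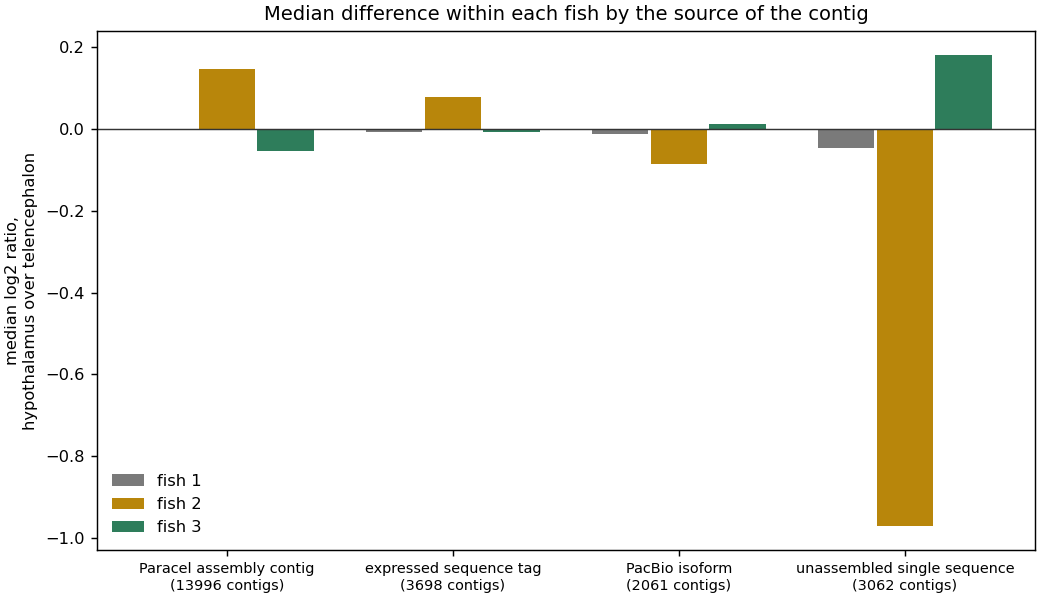
Median log2 ratio of hypothalamus over telencephalon within each fish, with contigs grouped by source; bars stand for fish 1, 2 and 3, and only well expressed contigs of the 4 large sources enter. The bar of the single sequences in fish 2 reaches -0.97, and the bars of the other 3 sources drawn lie between -0.09 and 0.15.

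Among PacBio isoforms, whose names give their length, the median ratio in fish 2 was lower for longer ones. The 445 isoforms under 1000 nucleotides had a median log2 ratio of 0.14 in fish 2, those of 1000 to 2000 had -0.06, those of 2000 to 3000 had -0.23, and the 190 isoforms of at least 3000 nucleotides had -0.48. In fish 1 the medians of the same length classes were between -0.06 and 0.01, and in fish 3 they were between -0.08 in the shortest and 0.11 in the longest. The 19 isoforms called between the regions below had lengths of 726 to 2660 nucleotides (median 1185, against 1249.5 for all 4456 tested). The paper states that only RNA above an integrity threshold was sequenced, and the labels give no value for single libraries. Whether RNA quality or library preparation differed for the hypothalamus library of fish 2 was not tested, so the calls that follow are also counted without fish 2.

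With each fish as a block, 238 of the 42878 contigs (0.555%) differed between hypothalamus and telencephalon at an adjusted p under 0.05 by edgeR's quasi-likelihood test. Of these, 137 (0.32% of the contigs tested) were higher in hypothalamus and 101 (0.236%) were higher in telencephalon. Among these calls the folds were large in both directions, and no fold under 2.29 passed in this fit. The median fold was 6.48 among the contigs higher in hypothalamus, with quartiles of 4.38 and 12.4, and 6.62 among those higher in telencephalon, with quartiles of 3.80 and 14.3. At least 10-fold differences were found in 43 of the 137 and 35 of the 101. The share of calls that were higher in hypothalamus depended on the setting, with 39 against 40 in telencephalon under scaling by library size alone and 1 against 5 when a change of more than 2-fold was required. Without fish 2 the same test called 1446 contigs (3.37%), which included all 238. The median folds of these calls were lower, 2.77 for those higher in hypothalamus and 2.34 for those higher in telencephalon. Without fish 1 it called 74 (0.173%), and without fish 3 it called 74 (0.173%). Each of these fits takes the spread from the remaining fish alone, so its calls and p-values rest on less information than those of all 3 fish. Repeated use of the fit without fish 2 below followed from the values seen in that fish.

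**Figure D2:**
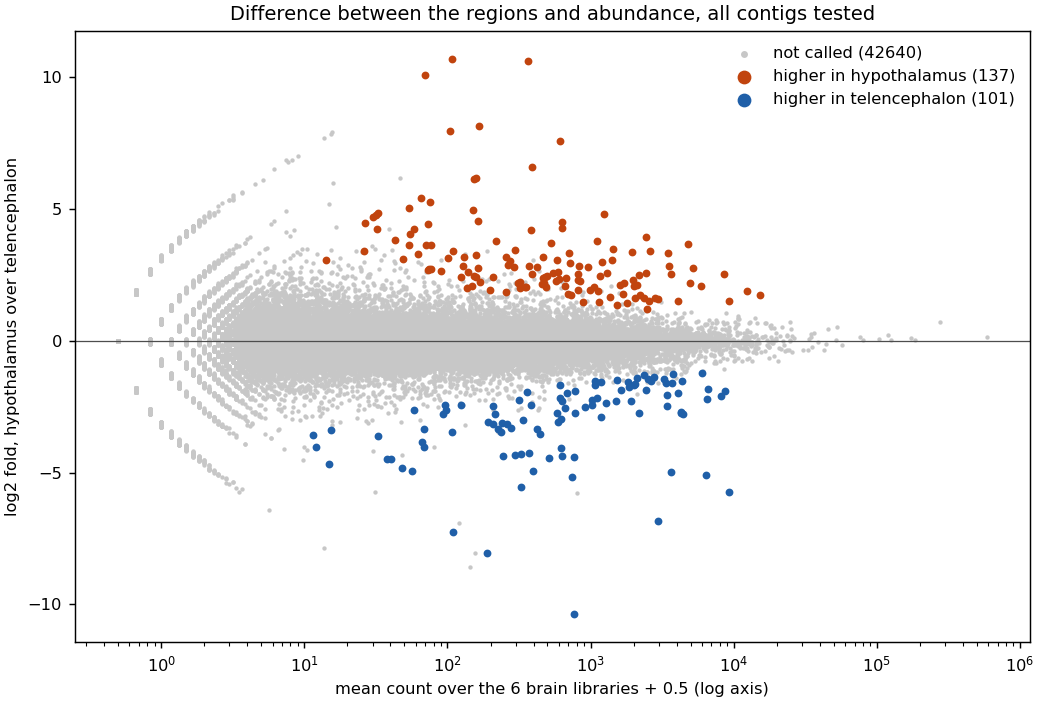
Fitted log2 fold of hypothalamus over telencephalon against the mean count over the 6 brain libraries plus 0.5, on a log axis, for all contigs tested; orange points were higher in hypothalamus (137), blue points higher in telencephalon (101), and grey points did not pass an adjusted p of 0.05. Called contigs lie above and below 0 at mean counts from 11 to 15310, and none has a mean under 10.

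The smallest difference that passed was lower for contigs with more counts. None of the 10417 contigs with a mean under 10 counts passed, and 17 of 9567 (0.178%) with 10 to 50 counts did, where the smallest called fold was 8.42. Between 50 and 250 counts 58 of 10816 (0.536%) passed, and between 250 and 1000 counts 77 of 7580 (1.02%) passed, with smallest called folds of 3.79 and 2.78. Over 1000 counts 86 of 4498 (1.91%) passed, 43 in each direction, from 2.29-fold upward. No smaller fold passed in this fit of the 3 fish. Without fish 2, 443 of 4360 contigs (10.2%) over 1000 counts passed, from 1.25-fold upward. Of the calls without fish 2, 200 of 768 higher in hypothalamus and 262 of 678 higher in telencephalon were under 2-fold. The smallest called fold was not taken for the other fits, so what set this limit was not tested. Under 10 counts 7 of 10500 contigs (0.0667%) passed without fish 2.

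Together the 238 contigs called with all 3 fish made up a small part of the counts. The share of the 1446 contigs called without fish 2 was not taken. The 137 contigs higher in hypothalamus took 1.11%, 1.54% and 1.36% of the counts in hypothalamus 1, 2 and 3, against 0.269%, 0.319% and 0.293% in telencephalon 1, 2 and 3. The 101 contigs higher in telencephalon took 0.278%, 0.277% and 0.289% of the hypothalamus counts, against 1.22%, 1.41% and 1.36% of the telencephalon counts. The shares lay far apart between the regions and close together among the fish, as the choice of these contigs would set.

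The largest folds were close to presence in a single region. The counts of FHM_All_PTA_Assem.14049.C1 were 660, 878 and 651 in hypothalamus 1, 2 and 3, against 0, 1 and 0 in telencephalon 1, 2 and 3. All hypothalamus libraries were far above all telencephalon libraries, and the ratio of scaled counts was 2116, with an exact 95% interval of 379 to 83600 that covers counting error only (adjusted p = 0.00279, edgeR quasi-likelihood test). No gut or liver library had more than 4 counts of it. Singlet_518 was found in hypothalamus 1, 2 and 3 with 189, 173 and 282 counts and had 0 in each telencephalon library, at least 207-fold higher against a floor of 3 counts over the group (adjusted p = 0.031 in the same edgeR fit). This sequence was also abundant in liver, with 195, 213 and 230 counts, and had 0, 0 and 1 in gut. With scaling by library size alone the adjusted p of Singlet_518 was 0.118.

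Contigs with the highest CPM among those higher in hypothalamus differed less, but at great depth. CPM was not corrected for contig length, so it orders libraries and not transcripts. The counts of FHM_All_PTA_Assem.13937.C1 were 18906, 29077 and 23691 in hypothalamus 1, 2 and 3 (863, 1436 and 1212 CPM), against 5958, 7288 and 6930 in telencephalon 1, 2 and 3 (292, 335 and 397 CPM). The groups did not overlap, and the log2 fold was 1.76 (SE 0.15, adjusted p = 0.0126, edgeR with 3 fish). FHM_All_PTA_Assem.2327.C1 had 13648, 24653 and 20780 counts in hypothalamus, against 5123, 4973 and 4750 in telencephalon. Here too every hypothalamus library was above every telencephalon library, with the lowest in fish 1, and the log2 fold was 1.90 (SE 0.22, adjusted p = 0.0279, edgeR). Both were nearly absent from the other tissues, with 10 to 38 counts in any gut or liver library. The adjusted p of the first was 0.0546 without fish 1, and that of the second was 0.101 without fish 3 and 0.061 with scaling by library size alone.

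Among contigs higher in telencephalon, FHM_All_PTA_Assem.13637.C1 had the largest fold. It had 0, 2 and 1 counts in hypothalamus 1, 2 and 3, against 558, 3158 and 846 in telencephalon 1, 2 and 3. The groups were far apart, while the telencephalon libraries themselves differed several fold, with fish 2 the highest. The ratio of telencephalon over hypothalamus was 1573 with an exact interval of 538 to 7633 (adjusted p = 0.000206 for the region, edgeR), and the contig also differed between fish (adjusted p = 0.0139). Among contigs with 50 or more counts throughout telencephalon, an expressed sequence tag, a short read of a cloned cDNA, came next, with 0, 2 and 2 counts in hypothalamus against 303, 215 and 131 in telencephalon. Its ratio of telencephalon over hypothalamus was 168, with an exact interval of 65.3 to 618 (adjusted p = 0.00267, edgeR). Neither contig had more than 13 counts in any gut or liver library. These were the named contigs that kept an adjusted p under 0.05 when a change of more than 2-fold was required, a test that called 6 contigs in all.

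**Figure D3:**
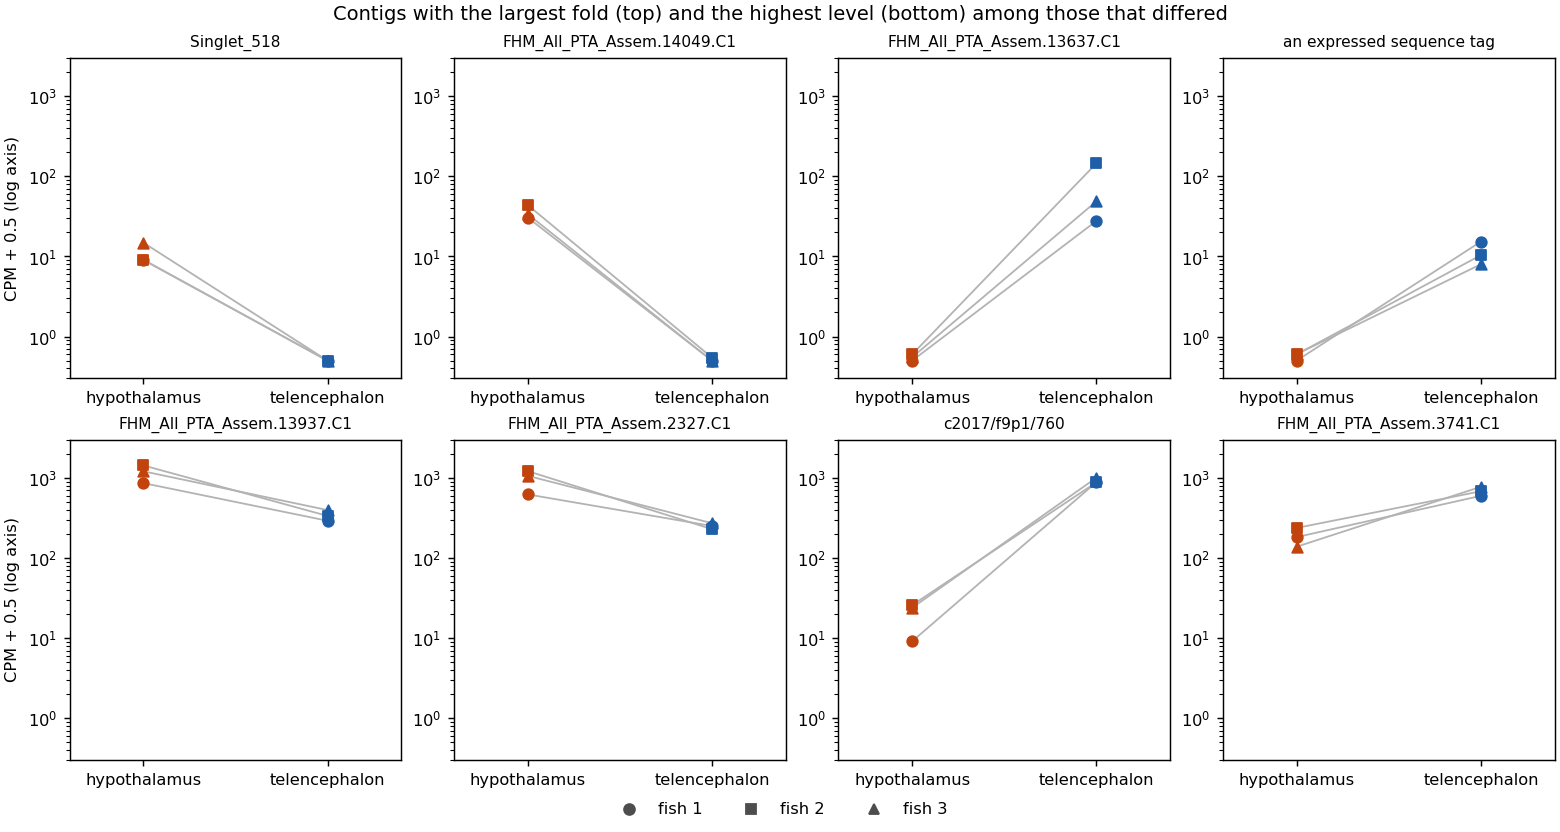
CPM plus 0.5 on a log axis of the contigs with the largest fold (top row) and with the highest level (bottom row), in hypothalamus (left in each panel) and telencephalon; each symbol is the library of 1 fish and lines join the regions of a fish. All 3 lines of a panel run the same way, as the choice of these contigs required. The groups overlap in none of the 8 panels.

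The PacBio isoform c2017/f9p1/760, of 760 nucleotides, joined a large fold with a high level. It had 189, 512 and 458 counts in hypothalamus 1, 2 and 3 (8.62, 25.3 and 23.4 CPM), against 18126, 19194 and 17617 in telencephalon 1, 2 and 3 (887, 883 and 1008 CPM). The telencephalon libraries were nearly level, the hypothalamus of fish 1 was the lowest, and the log2 fold was -5.72 (SE 0.35, adjusted p = 0.0045, edgeR). FHM_All_PTA_Assem.3741.C1 had 3990, 4798 and 2696 counts in hypothalamus, against 12208, 14822 and 13545 in telencephalon. The groups did not overlap, and the log2 fold was -1.91 (SE 0.21, adjusted p = 0.0243, edgeR). The adjusted p was 0.0942 without fish 1, 0.0722 without fish 3 and 0.0519 with scaling by library size alone. In gut and liver both contigs had between 8 and 28 counts per library. Without fish 2 all 8 contigs named so far, 4 in each direction, kept their direction and had adjusted p-values of 1.27e-06 to 0.000124 in the edgeR fit. The choice of these contigs required a call and the same direction in every fish. Their direction was therefore set, and these p-values add no support.

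Few transcripts were counted in a single region, and most of them were rare. In all 3 hypothalamus libraries but no telencephalon library, 59 contigs had a count, with a median sum of 7 counts, and 69 contigs had the reverse pattern, with a median sum of 6. Of the 59, 10 had more than 30 counts in sum, against 2 of the 69. Only Singlet_518 and FHM_All_PTA_Assem.6517.C1 were called among these contigs, 2 of the 59 beside 0.32% of all contigs tested, and 0 of the 69 beside 0.236%. Without fish 2 the calls were 8 of the 59, beside 1.79% of all contigs tested, and 1 of the 69, beside 678 of the 42878 tested. These contigs were chosen for 0 counts in the other region, values that the test also uses. That choice set the direction of the calls and in part their share, so the shares add no support. For FHM_All_PTA_Assem.6517.C1 the hypothalamus libraries gave 172, 131 and 114 counts and each telencephalon library 0, at least 134-fold higher (adjusted p = 0.0424, edgeR). At their lower bounds both still lie above the upper quartile of the folds given above, so the median is the same. The contig with the largest sum in telencephalon alone, FHM_All_PTA_Assem.1709.CB1, had 1, 4 and 75 counts in telencephalon 1, 2 and 3, nearly all of them in fish 3 (adjusted p = 0.165).

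The differences were then followed within each fish as the log2 ratio of CPM plus 0.5. All 137 contigs higher in hypothalamus had a positive ratio in fish 1, 2 and 3, and 100 of the 101 contigs higher in telencephalon had a negative ratio in each. The median ratio of the hypothalamus set was 2.25, 2.53 and 2.36 in fish 1, 2 and 3, and that of the telencephalon set was -2.35, -2.37 and -2.38. No overlap between the regions was found for 137 and 99 of them, against 5249 (12.2%) of all contigs tested, and since the test rests on these ratios the counts describe the calls and add no support.

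Over all 22894 well expressed contigs the spread of the ratios differed between fish. The SD of the log2 ratio was 0.526 in fish 1, 1.01 in fish 2 and 0.567 in fish 3. More than 2-fold differences between the regions were seen for 1171 contigs (5.12%) in fish 1, 5851 (25.6%) in fish 2 and 1287 (5.62%) in fish 3. In fish 1 and fish 3 more of them were higher in hypothalamus, 651 against 520 and 774 against 513, while in fish 2 1560 were higher in hypothalamus and 4291 in telencephalon. The ratios of fish 1 and fish 3, which share no library, correlated across contigs with Pearson r of 0.590, those of fish 1 and fish 2 with 0.464, and those of fish 2 and fish 3 with 0.0906. A difference of more than 2-fold in the same direction in all 3 fish was found for 252 contigs higher in hypothalamus, of which 128 were called, and for 210 contigs higher in telencephalon, of which 89 were called.

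**Figure D4:**
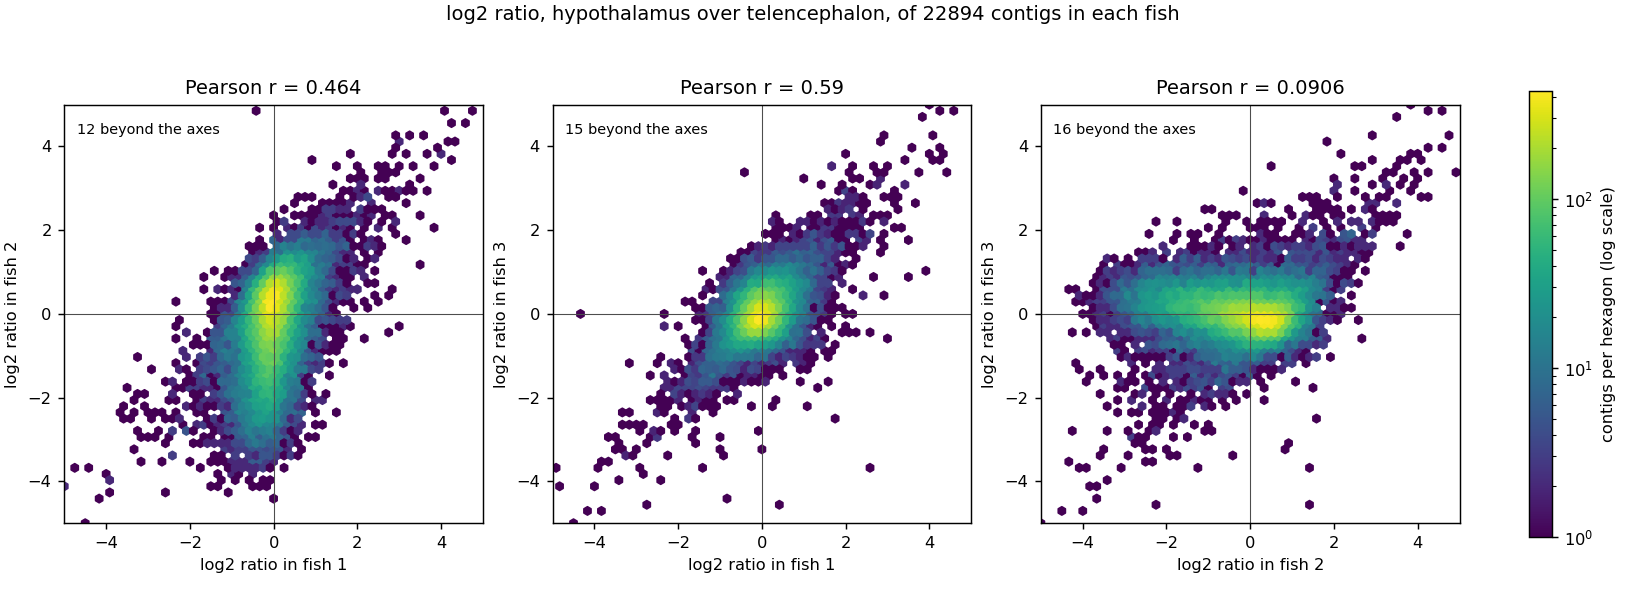
log2 ratio of hypothalamus over telencephalon of 22894 contigs in a pair of fish per panel, with the number of contigs per hexagon in colour on a log scale; 12 to 16 contigs per panel lie beyond the axes. Ratios of fish 1 and fish 3 follow a diagonal (r = 0.590), and those of fish 2 extend to low values where fish 1 and fish 3 lie near 0.

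Leaving out a fish gave a set of calls that the left-out fish had not entered, so its ratio could be read separately. Without fish 2, 768 contigs were higher in hypothalamus and 678 in telencephalon, with median folds of 2.77 and 2.34. In fish 2, 625 of the 768 were also higher in hypothalamus and 604 of the 678 were also higher in telencephalon, 85% together, where 51.4% of all well expressed contigs were higher in hypothalamus and 48.5% in telencephalon. The median log2 ratios were 1.16 and -0.98 in fish 2, beside median fitted log2 folds of 1.47 and -1.22. These are unlike measures, since the ratios have a constant added to CPM, which makes them smaller in size. The 137 contigs above had median ratios of 2.25 to 2.53 within the fish, beside a fitted median of 2.70. Whether the size was the same in a left-out fish was therefore not tested. Of the 140 contigs higher in hypothalamus without fish 2 that were lower there in fish 2, 36 were unassembled single sequences and 44 differed by more than 2-fold. Of the 74 contigs higher in telencephalon that went the other way in fish 2, 1 was a single sequence and 0 differed by more than 2-fold. Single sequences were 84 of the 768 (10.9%) and 76 of the 678 (11.2%). Among all 22894 well expressed contigs, fish 2 had 4291 more than 2-fold lower in hypothalamus and 1560 more than 2-fold higher. Of the 74 contigs called without fish 1, 73 (98.6%) had the same direction in fish 1. Their median log2 ratios were 3.05 and -3.39 in fish 1, beside median fitted log2 folds of 4.07 and -4.93. Of the 74 called without fish 3, 72 (97.3%) had the same direction in fish 3. Here the median log2 ratios were 3.19 and -3.71 in fish 3, beside median fitted log2 folds of 3.54 and -4.17.

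The source of the contigs gave a further view of the calls. Of the contigs of the Paracel assembly, 148 of 20719 (0.714%) were called, 81 higher in hypothalamus and 67 in telencephalon. Of the expressed sequence tags 48 of 9806 (0.489%) were called, 36 higher in hypothalamus and 12 in telencephalon, and of the PacBio isoforms 19 of 4456 (0.426%), 11 and 8. Of the single sequences 23 of 7563 (0.304%) were called, 9 higher in hypothalamus and 14 in telencephalon. The sources differed in depth, with 13996 Paracel contigs, 3698 tags, 2061 isoforms and 3062 single sequences well expressed. The share called rose with the mean count, so these shares do not compare the sources at equal depth. Without fish 2 the calls were 870 (4.2%) of the Paracel contigs, 282 (2.88%) of the tags, 132 (2.96%) of the isoforms and 160 (2.12%) of the single sequences. When the single sequences, which were low in hypothalamus 2, were left out of the fit, a choice made after seeing the data, 296 contigs were called, 168 higher in hypothalamus and 128 in telencephalon.

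Contigs of 1 assembly cluster share sequence and can be isoforms, alleles or near-identical genes, so their counts are not independent and reads may have been split between them. The 148 called contigs of the assembly came from 139 clusters. In 9 clusters more than 1 contig was called, and in 0 of these did the calls point in both directions. Without fish 2 the 870 called contigs came from 821 clusters, with more than 1 call in 40 and calls in both directions in 0. In cluster 1961, FHM_All_PTA_Assem.1961.C1 had 3401, 3858 and 2534 counts in hypothalamus against 12911, 13278 and 13188 in telencephalon. FHM_All_PTA_Assem.1961.C2 had 1567, 667 and 1512 against 7695, 7966 and 6308. Both were lower in every hypothalamus library, with log2 folds of -2.08 (SE 0.20, adjusted p = 0.0169) and -2.69 (SE 0.28, adjusted p = 0.0225) in the edgeR fit.

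In other clusters some contigs passed and others did not. In cluster 4118, FHM_All_PTA_Assem.4118.C3 had 4791, 3855 and 5605 counts in hypothalamus 1, 2 and 3, against 410, 537 and 359 in telencephalon 1, 2 and 3 (log2 fold 3.40, SE 0.23, adjusted p = 0.00664, edgeR). FHM_All_PTA_Assem.4118.C1 of the same cluster had 263, 3960 and 2079 counts against 22, 211 and 172 (log2 fold 3.80, SE 0.29, adjusted p = 0.00804). It was higher in hypothalamus within each fish, while fish 1 was low in both regions, and its adjusted p between fish was 0.00856. FHM_All_PTA_Assem.4118.C2 had 307, 308 and 918 counts against 191, 197 and 185 and did not pass (log2 fold 1.17, SE 0.36, adjusted p = 0.411). It too was higher in hypothalamus within each fish, and whether its fold differed from those of C1 and C3 was not tested.

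Cluster 9485 held 6 tested contigs. FHM_All_PTA_Assem.9485.C2 had 431, 211 and 490 counts in hypothalamus against 1586, 1960 and 1462 in telencephalon (log2 fold -2.26, SE 0.31, adjusted p = 0.0485, edgeR). FHM_All_PTA_Assem.9485.C6 had 889, 1137 and 641 against 2512, 3413 and 2566 (log2 fold -1.75, SE 0.21, adjusted p = 0.031). In both the regions did not overlap, whereas FHM_All_PTA_Assem.9485.C1 had 1445, 2117 and 1153 in hypothalamus against 1443, 1598 and 1345 in telencephalon, with a log2 fold of 0.0093 (SE 0.23, adjusted p = 1). Among 15 clusters with a call and other well expressed contigs, 17 of 20 uncalled contigs (85%) had the sign of the call, with a median of 1.08 log2 in its direction. Contigs of a cluster share sequence and the clusters were chosen by their calls, so this describes them and adds no support.

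Most of the called contigs had their highest level in brain. On CPM scaled over all 12 libraries, the highest mean of the 4 tissues was in hypothalamus for 112 of the 137 contigs higher there (81.8%), in liver for 15 and in gut for 10. It was in telencephalon for 94 of the 101 contigs higher there (93.1%), in liver for 4 and in gut for 3. Over all 32461 contigs that averaged 10 or more brain counts these shares were 22.8% for hypothalamus and 28.6% for telencephalon, and part of the rise follows from the choice, which removes the other brain region. Of the calls without fish 2, 566 of 768 (73.7%) had their highest mean in hypothalamus and 608 of 678 (89.7%) in telencephalon. Gut and liver never exceeded 5 counts for 21 of the 137 (15.3%) and 14 of the 101 (13.9%), against 4.98% of the 32461.

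The 112 contigs with their highest mean in hypothalamus had median levels of 34.1 CPM there, 5.24 in telencephalon, 0.789 in gut and 0.628 in liver. The 94 with their highest mean in telencephalon had 7.07 CPM in hypothalamus, 45.8 in telencephalon, 0.694 in gut and 0.735 in liver. A different pattern was seen in the 15 contigs higher in hypothalamus that peaked in liver, with medians of 5.30 CPM in hypothalamus, 0.288 in telencephalon, 2.83 in gut and 48.0 in liver. They had little signal in telencephalon, and Singlet_518 was among them.

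The signal of liver and gut contigs in the brain libraries was also summed. A list of 77 liver contigs, with 50 or more counts in each liver library and 5 or fewer in each gut library, had sums of 92.7, 86.7 and 134.8 CPM in hypothalamus 1, 2 and 3, against 53.1, 68.0 and 63.4 CPM in telencephalon 1, 2 and 3. Of the 77, 3 (3.9%) were called higher in hypothalamus, beside 0.32% of all contigs tested, and 0 higher in telencephalon, beside 0.236%. Most of the 77 did not pass. The median log2 fold of the 77, taken at any count, was 0.15, beside -0.02 over the well expressed contigs only. Without the 3 called contigs the sums were 76.4, 70.8 and 104.2 CPM in hypothalamus, against 52.9, 67.9 and 63.4 CPM in telencephalon. On this TMM scale the regions did not overlap on either sum, and the liver libraries had 2986 to 3788 CPM. On the second sum hypothalamus 2 and telencephalon 2 lay close, at 70.8 and 67.9 CPM. Their TMM factors over all 12 libraries were 1.132 and 1.279, so this gap depends on the scaling. Sums scaled by library size alone were not taken. Without fish 2, 5 of the 77 (6.49%) were called higher in hypothalamus, beside 1.79% of all contigs tested. In telencephalon 1 of the 77 was called higher, beside 678 of the 42878 tested.

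A list of 296 gut contigs, chosen in the reverse way, summed to 1063, 1370 and 1265 CPM in hypothalamus against 996, 1110 and 1076 CPM in telencephalon, and here the regions overlapped. Of the 296, 1 (0.338%) was called higher in hypothalamus, close to the 0.32% of all contigs tested, and 0 in telencephalon, beside 0.236%. The median log2 fold of the 296 was 0. Without fish 2, 11 of the 296 (3.72%) were called higher in hypothalamus, beside 1.79% of all contigs tested. In telencephalon 9 of the 296 were called higher, beside 678 of the 42878 tested. The part of other tissues or of blood in these sums was not tested.

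More contigs were called between the 3 fish than between the regions. The labels give only the replicate number, so a fish and any batch that shares its number cannot be told apart. The test between fish takes in any difference among the 3, while that between regions is a single contrast, so the counts come from unlike tests. In the same fit 1786 contigs (4.17%) differed between replicate numbers at an adjusted p under 0.05 (edgeR quasi-likelihood test). Of these 1786, 6 also differed between the regions, beside 238 (0.555%) of all 42878 contigs tested. The range over fish had a median of 6.44-fold and was at least 10-fold in 527. Fish 1 was the odd one in most, above the others for 801 contigs and below them for 396, while fish 2 was above for 160 and below for 141, and fish 3 was above for 149 and below for 139. Without fish 1 the test called 314 contigs, and without fish 2 it called 4812.

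The contigs with the smallest p between fish were nearly on or off. FHM_All_PTA_Assem.3548.C2 had 3, 4 and 1216 counts in hypothalamus 1, 2 and 3 and 1, 1 and 510 in telencephalon 1, 2 and 3 (adjusted p between fish = 0.000273, edgeR). In fish 3 it was high in both brain regions, but no gut or liver library had more than 2 counts, fish 3 included. For FHM_All_PTA_Assem.388.CB1 the counts were 1208, 1 and 6 in hypothalamus, with 1146, 2 and 4 in telencephalon (adjusted p between fish = 0.000503). In fish 1 it was high in all tissues, with 448, 4 and 2 counts in gut and 523, 4 and 1 in liver. The gut and liver libraries had not entered the fit, and among the called contigs that were well expressed there, the fish with the highest level was the same as in brain for 549 of 823 (66.7%) in gut and 363 of 519 (69.9%) in liver, against 39.8% and 40.7% of all well expressed contigs.

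**Figure D5:**
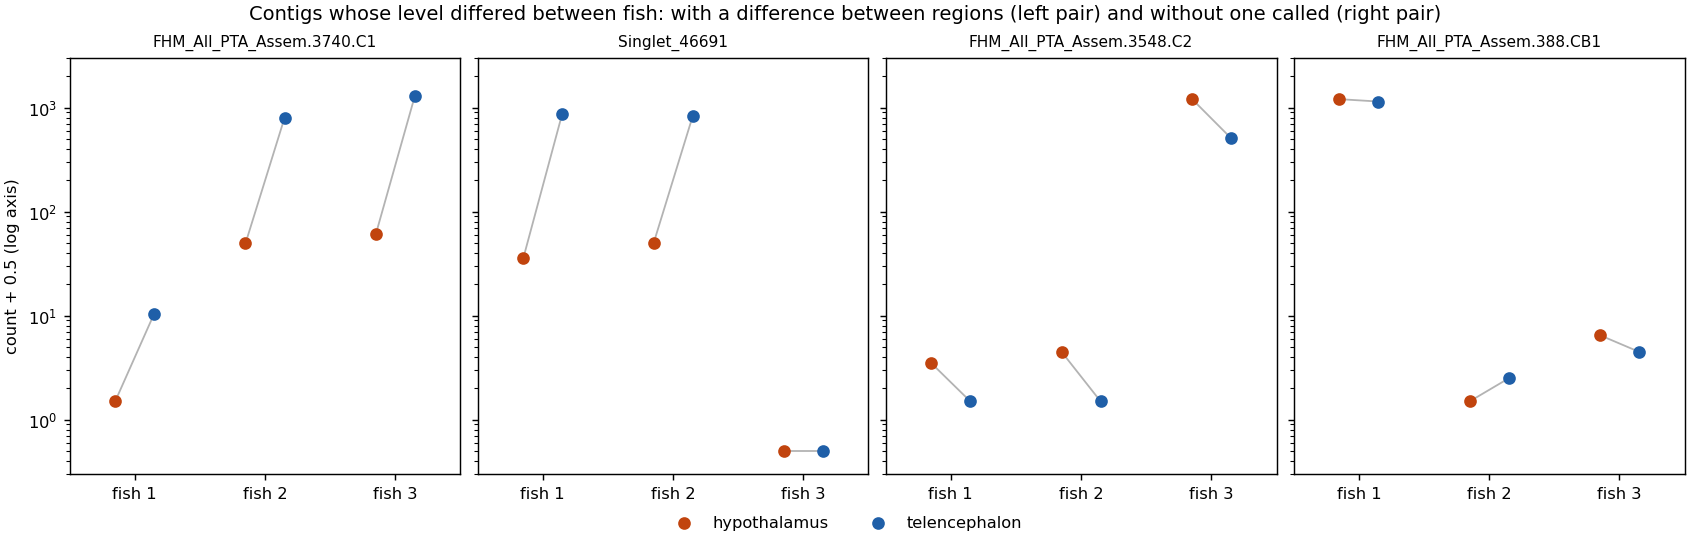
Counts plus 0.5 on a log axis in hypothalamus (orange, left of each pair) and telencephalon (blue) of fish 1, 2 and 3; lines join the regions of a fish. The left panels show contigs that differed between regions and between fish, the right panels contigs that differed between fish with no call between regions.

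The 6 contigs called for both differences included a pair whose regions overlapped over all fish and were apart within a fish. The counts of FHM_All_PTA_Assem.3740.C1 were 1, 49 and 60 in hypothalamus 1, 2 and 3, against 10, 799 and 1297 in telencephalon 1, 2 and 3. The groups overlapped, since the telencephalon of fish 1 was below the hypothalamus of fish 2 and fish 3, yet telencephalon was the higher region in every fish (log2 fold -4.25, SE 0.32, adjusted p = 0.0045 for region and 0.00247 for fish, edgeR). For Singlet_46691 the counts were 35, 49 and 0 in hypothalamus, against 879, 823 and 0 in telencephalon. It had 0 counts in both regions of fish 3, and in the other fish telencephalon was higher (log2 fold -4.33, SE 0.40, adjusted p = 0.0235 for region and 0.0114 for fish). These were the called contigs whose groups overlapped, and in the other 4 contigs called for both differences the regions did not overlap. They were FHM_All_PTA_Assem.13637.C1 and FHM_All_PTA_Assem.4118.C1, described above, and FHM_All_PTA_Assem.1709.C7 and FHM_All_PTA_Assem.3529.C1. The call of FHM_All_PTA_Assem.1709.C7 rested mostly on fish 3, with 2, 0 and 2 counts in hypothalamus against 6, 10 and 1120 in telencephalon (adjusted p = 0.0417 for region, edgeR). For FHM_All_PTA_Assem.3529.C1 the counts were 264, 53 and 18 in hypothalamus against 7, 5 and 3 in telencephalon, highest in fish 1 in both regions (log2 fold 4.24, SE 0.58, adjusted p = 0.0238, edgeR). The contigs of this paragraph other than FHM_All_PTA_Assem.13637.C1 were chosen after their values were seen. Without the block the test also called 238 contigs, 124 higher in hypothalamus and 114 in telencephalon, of which 185 were among those called with it.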

How the data were processed

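Per the paper and the labels, the authors trimmed with cutadapt, aligned the reads by bowtie 2, dropped likely PCR duplicates, kept unique mappings with SAMtools and counted reads per sequence with their own scripts. Tool versions were not found in these sources, and the methods name both the study's consensus sequences and zebrafish sequences as the mapping target. The deposited values are raw counts per contig. Contigs absent from a list were set to 0, and 0 columns lacked a mapped sample.

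R 4.3.3 with edgeR 4.0.16 fitted region and replicate number to the 6 brain libraries (TMM scaling, quasi-likelihood test, Benjamini-Hochberg, threshold 0.05) over contigs that had 1 count or more in 2 or more replicates of any of the 4 tissues. DESeq2 1.42.0 and other scalings, filters and fits were alternatives, and so was leaving out each number. Log2 ratios used TMM-scaled CPM plus 0.5.

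The pairing reads each number as a fish among the study's 3 males, which the labels do not state. Deviations from the region mean correlated across contigs with r of 0.848, 0.359 and 0.452 between libraries of the same number, and -0.586 to 0.155 between different numbers. Such deviations cancel out within a region for each contig, so a higher r within a number lowers r between numbers. This contrast is therefore set in part by the calculation. Replicates of a region differed by a chi-square per degree of freedom of 14.8 to 80.4. In the paired fit of 3 fish, p-values for the region rest on how the difference between regions varied among these fish. The block takes out differences between fish in level, and the fit shares information on the spread across contigs. Reads carry no molecular identifiers, so intervals and floors cover counting error only.

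Contigs named were, among those called, in the same direction in all 3 numbers and with 50 counts or more throughout the higher region, the 2 of largest fold and the 2 of highest mean CPM in each direction, and the 2 of smallest p between numbers. Others were chosen after their values were seen. Members and lists were chosen with earlier results of these data known. The marker genes could not be looked up, since 0 of 11230 identifiers matched the 64593 genes of assembly fPimPro1.hap1.1.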

Additional observations from a re-analysis of the deposited data

How the results depend on the processing

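The number of contigs that differed between hypothalamus and telencephalon depended on the fit. Beside 238 in the paired fit, and 238 with no replicate block, it was 515 with edgeR's exact test without the block, 895 with DESeq2, 375 with the legacy quasi-likelihood method, 455 with all 12 libraries, 363 with the filterByExpr filter, 79 (39 higher in hypothalamus, 40 in telencephalon) with scaling by library size alone and 6 (1 and 5) with a 2-fold threshold. The paired calls shared 232 contigs with the exact test, 233 with DESeq2 and 79 with the scaling by library size. Leaving out a fish gave 74 to 1446, the highest without fish 2. Contigs that differed between fish numbered 1786, and 3879 with all 12 libraries, 1147 with scaling by library size alone, 838 with at least 50 counts in 3 libraries, and 314 to 4812 with a fish left out. No named contig changed direction, which their choice from the same libraries largely set. Of the 8 named for the region difference, 5 kept an adjusted p under 0.05 with scaling by library size alone, 2 with the 2-fold threshold, 6 without fish 1 and 6 without fish 3. In the paired fit of 3 fish no contig averaging under 10 counts was called and no fold under 2.29 passed. Without fish 2 folds from 1.25 passed, and the other fits were not described in this way.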
